A study of Mus musculus with 72 samples.

Results

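The response of epididymal white adipose tissue (eWAT) to a high fat diet was followed across all genes in the male offspring of dams fed freely. The comparison takes in 12 of the 72 libraries of the series, all of eWAT: 6 FED-HFD mice, which ate a diet with 45% fat, and 6 FED-CTRL mice, which ate a diet with 10% fat. All 12 mice were FVB.129P2 mice, a sighted FVB strain, were born to FED dams, which ate ad libitum, and started the diet at 8 weeks of age. The sample labels and the study's methods give 10 or 16 weeks on the diet. The study's results and the legend of its eWAT figure give 10 weeks for the sequenced males, and the labels do not state it for each mouse. The members were chosen by tissue, dam and diet in the labels and not by any measured value. The other 60 libraries hold the pituitary and liver of the same mice and the 3 tissues of the offspring of CR20 dams, whose food was reduced by 20%. Which mice were littermates is not given in the sources used here, so p-values measure the spread between mice that may share a dam. Of 55416 genes counted, 15964 passed the filter on low counts and were tested.

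eWAT is a visceral fat depot of male mice. Its adipocytes store triglyceride that they take up from the blood or make from glucose by de novo lipogenesis, they release fatty acids by lipolysis, and they secrete adipokines such as leptin and adiponectin. Between the adipocytes lie progenitors, endothelial and mesothelial cells, resident macrophages and lymphocytes. In obesity, macrophages that carry Trem2 and many lysosomal and lipid handling genes are known to collect around dying adipocytes, and lipogenic genes of adipocytes are known to be low on diets rich in fat. A library of whole tissue holds the RNA of all these cells, so more cells of a type and more RNA per cell cannot be told apart in these data.

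The 12 libraries held 12042184 to 22364963 counts. A gene with 3 counts, used as the floor of detection for counting error alone, corresponds to 0.134 to 0.249 CPM of these totals. Levels are given as CPM, the count scaled to a common library size after TMM normalisation. The tissue label held, since Adipoq stood at 644 CPM or more in each of the 12 libraries and 0 of 14 epididymis and testis markers passed the filter. FED-HFD mouse 23 stood apart. The summed level of 12 macrophage markers was 1257 to 1911 CPM in FED-CTRL and 2031 to 3921 CPM in the other 5 FED-HFD mice, but 10274 CPM in mouse 23. The summed level of 14 adipocyte markers was 50232 to 58216 CPM in FED-CTRL and 41657 to 52771 CPM in those 5 mice, and 22029.7 CPM in mouse 23. All 6 FED-HFD mice lay above all FED-CTRL mice in macrophage markers, whereas in adipocyte markers the groups overlapped. Results are therefore given with mouse 23 and, where it matters, without it.

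**Figure D1:**
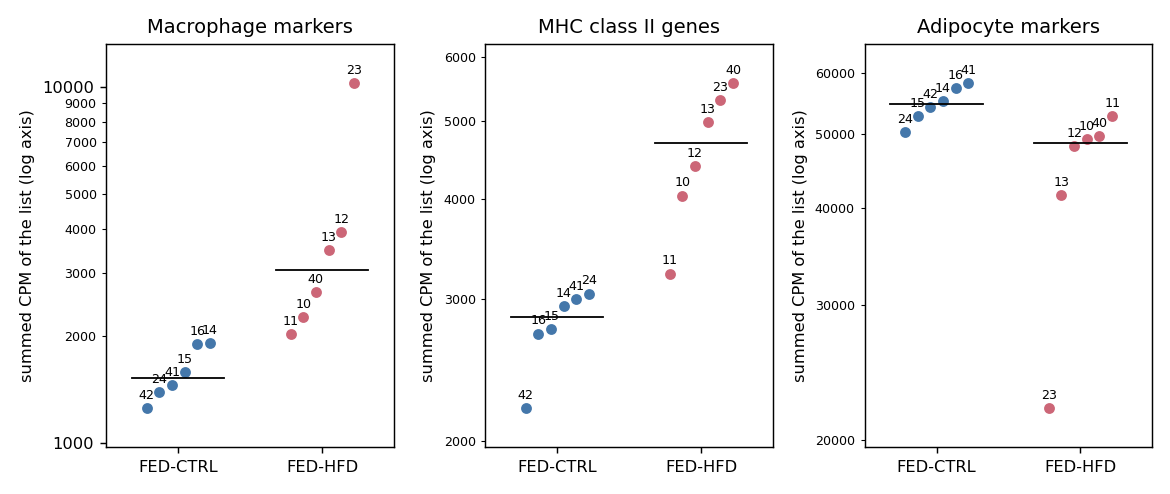
Summed CPM (log axis) of the macrophage markers, the MHC class II genes and the adipocyte markers in each of the 12 mice, with the mouse number above each point and a line at the group median. Mouse 23 is highest of FED-HFD in macrophage markers at 10274 CPM and lowest in adipocyte markers at 22029.7 CPM, while mouse 40 is highest in MHC class II genes at 5569 CPM.

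Some eWAT libraries also held RNA of genes that are abundant in liver. A list of 52 such genes was chosen after their values were seen, with a median above 1000 CPM in FED-CTRL liver and under 1/1000 of that in eWAT. Their summed level reached 0.788% of the liver level in FED-HFD mouse 10, 0.15% in FED-HFD mouse 13 and 0.678% in CR20-CTRL mouse 5, and at most 0.0261% in the other 21 eWAT libraries. Apoa1, which encodes the main protein of high density lipoprotein, stood at 108 CPM in mouse 10, 15.9 CPM in mouse 13 and at most 1.57 CPM in those 21 libraries. Of the 17 liver genes that were tested in eWAT, 12 were called higher in FED-HFD, and 0 were called without mice 10 and 13. They are counted in the totals below but not described as a response of eWAT.

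The high fat diet changed the eWAT of the offspring of FED dams mostly towards higher levels. A gene was called where its adjusted p did not exceed 0.055 and its log2 fold change (log2FC) was 0.58 or more in size. By this rule 1278 genes (8.01% of those tested) were called. Of them, 1025 genes (6.42% of those tested) were higher and 253 (1.58%) lower in FED-HFD than in FED-CTRL by edgeR's quasi-likelihood test. Of these, 961 and 211 were protein coding. The median log2FC was 1.20 over the higher genes, -0.83 over the lower genes and -0.00 over all genes tested. The rise reached log2FC 1 in 668 of the higher genes and 2 in 142, and 82 of the lower genes fell by at least 1. In 508 of the higher genes all 6 FED-HFD mice lay above all 6 FED-CTRL mice, and in 144 of the lower genes all lay below. Over all genes tested the groups were separate in this way for 648 genes (4.06%) and 431 genes (2.7%).

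FED-HFD mouse 23 had the most extreme levels. It was the highest FED-HFD mouse in 942 of the 1025 higher genes and the lowest in 220 of the 253 lower genes. Its log2 CPM in the higher genes lay a median of 2.21 above the FED-CTRL median, against 1.15 in mouse 13, 1.10 in mouse 12, 0.60 in mouse 40, 0.55 in mouse 10 and 0.49 in mouse 11. In the lower genes the same medians were -1.88 in mouse 23, -0.91 in mouse 13, -0.85 in mouse 12, -0.61 in mouse 10, -0.60 in mouse 11 and -0.58 in mouse 40. The genes were called with these same mice, so the medians are a description of how unequal the 6 mice were. Without mouse 23, 540 of the 1025 higher genes and 104 of the 253 lower genes passed the same thresholds, in all 547 (3.43%) and 106 (0.664%) of the 15964 genes, and the median log2FC of the higher and lower genes went from 1.20 and -0.83 to 0.84 and -0.71. Without mice 10 and 13, 950 of the higher and 164 of the lower genes passed.

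**Figure D2:**
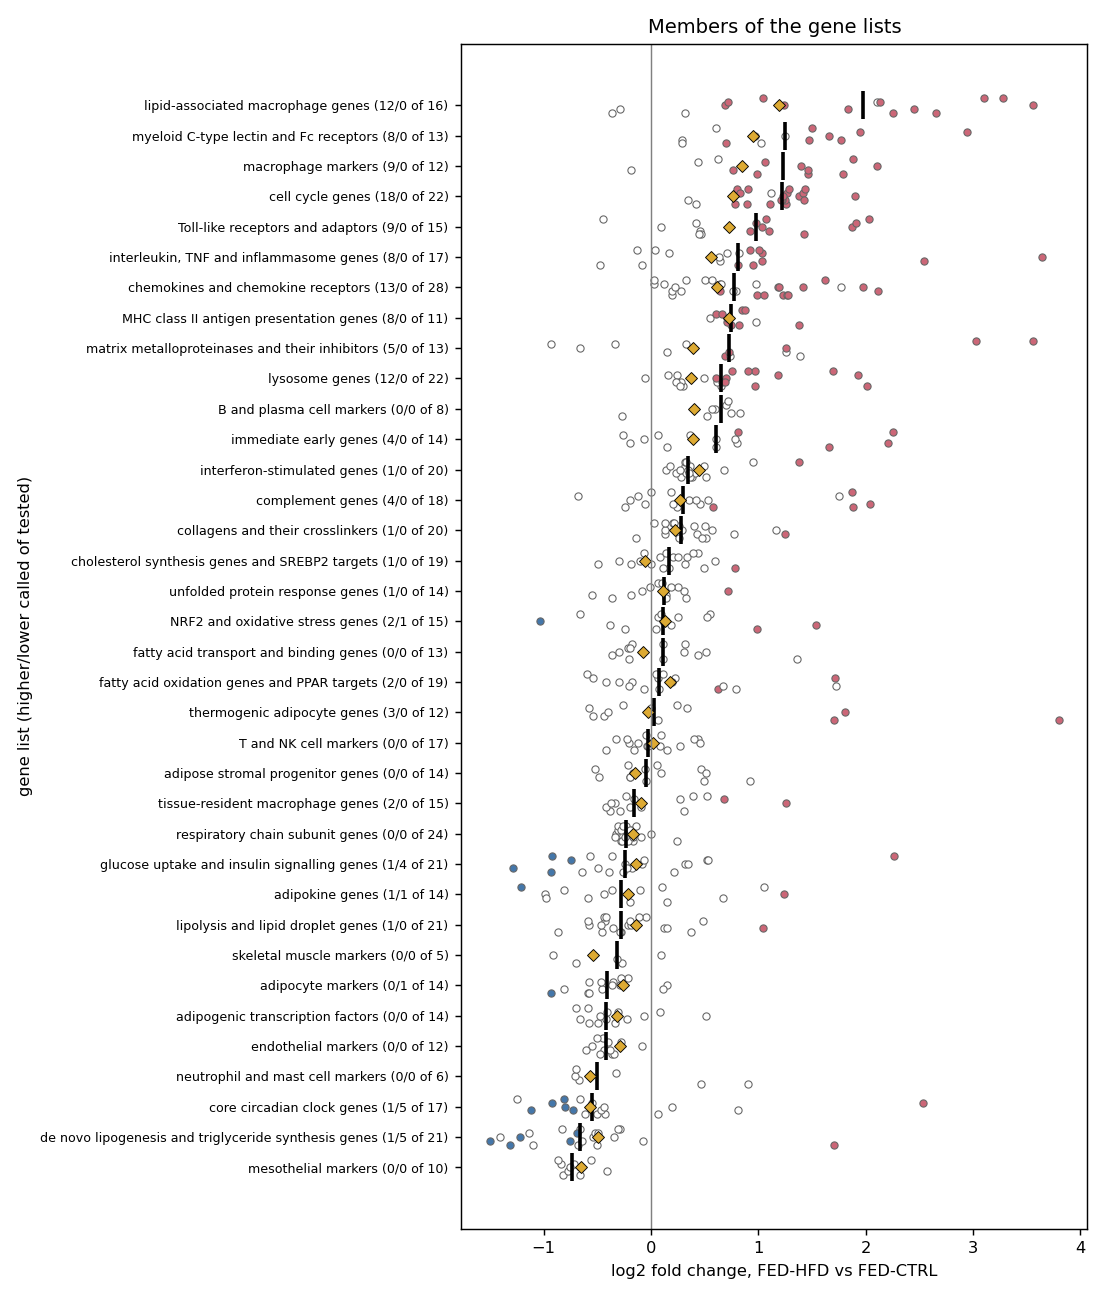
Log2FC of FED-HFD vs FED-CTRL (horizontal axis) for the tested members of 36 gene lists (vertical axis, with members called higher/lower of those tested), sorted by median. Red points were called higher, blue points lower and white points neither. The black bar is the median of the list and the yellow diamond its median without mouse 23. The median of lipid-associated macrophage genes is 1.97 with all mice and 1.19 without mouse 23, and that of de novo lipogenesis genes -0.66 and -0.50.

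Macrophage markers were higher in FED-HFD. Of 12 markers, 9 rose and 0 fell, with a median log2FC of 1.23, and 7 rose without mouse 23 (median 0.85). Cd68, a lysosomal glycoprotein of macrophages, stood at 68.7 to 105 CPM (median 86.6) in FED-CTRL and 175 to 953 CPM (median 272) in FED-HFD. The groups did not overlap, and the lowest FED-HFD mouse exceeded the highest FED-CTRL mouse (log2FC 2.11 ± 0.36 SE, edgeR adjusted p = 0.00297). Adgre1, which encodes F4/80, rose from 42.5 to 74.9 CPM (median 53.1) to 93.1 to 455 CPM (median 151) (log2FC 1.79 ± 0.32 SE, edgeR adjusted p = 0.00297). Csf1r, the receptor that macrophages need for survival, rose less, from 171 to 219 CPM (median 203) to 235 to 647 CPM (median 299) (log2FC 0.77 ± 0.20 SE, edgeR adjusted p = 0.0158), and without mouse 23 its log2FC of 0.48 lay under the threshold. C5ar1, the receptor for complement C5a, stood at 20.8 to 30.6 CPM (median 28.9) in FED-CTRL and 41.5 to 247 CPM (median 75.7) in FED-HFD (log2FC 1.88 ± 0.31 SE, edgeR adjusted p = 0.00297). The 3 markers that did not pass were Cd14, Mertk and Aif1.

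Genes known from lipid-associated macrophages had the highest median log2FC of the 36 lists with a tested member. Of 16 genes, 12 rose and 0 fell (median log2FC 1.97, and 1.19 with 9 genes without mouse 23). Gpnmb, a glycoprotein of lysosomes, stood at 84.4 to 193 CPM (median 133) in FED-CTRL and 354 to 4286 CPM (median 724) in FED-HFD, with the 4286 CPM of mouse 23 above the 1435 CPM of the next mouse (log2FC 3.28 ± 0.71 SE, edgeR adjusted p = 0.0057). Trem2, the lipid-sensing receptor that marks these cells, was at 24.2 to 44.4 CPM (median 35.3) in FED-CTRL and 83.1 to 653 CPM (median 136) in FED-HFD. Each FED-HFD mouse lay above each FED-CTRL mouse (log2FC 2.66 ± 0.52 SE, edgeR adjusted p = 0.00345). Its adaptor Tyrobp rose from 65.2 to 93.9 CPM (median 70.9) to 127 to 705 CPM (median 192) (log2FC 1.84 ± 0.34 SE, edgeR adjusted p = 0.00297). Lipa, the acid lipase that breaks down cholesteryl esters and triglycerides in lysosomes, stood at 110.1 to 150.3 CPM (median 125) in FED-CTRL and 219 to 1604 CPM (median 369.9) in FED-HFD (log2FC 2.14 ± 0.38 SE, edgeR adjusted p = 0.00297). Lgals3, which encodes galectin-3, had a log2FC of 2.45 with all mice and 1.82 without mouse 23 (edgeR adjusted p = 0.00297 and 0.00486). The 4 members that did not pass were Spp1, Cd36, Fabp4 and Lpl, of which the last 3 are abundant in adipocytes too.

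Genes of tissue-resident macrophages gave fewer calls than the macrophage lists above. Clec10a and Mrc1 of 15 rose, 0 fell, and the median log2FC was -0.16. Over all genes tested 6.42% were called higher, so these calls were not few beside that share. Clec10a, a lectin for galactose-type sugars, stood at 64.4 to 90.1 CPM (median 78.1) in FED-CTRL and 94.3 to 406 CPM (median 143) in FED-HFD (log2FC 1.26 ± 0.28 SE, edgeR adjusted p = 0.00596). Mrc1, the mannose receptor, rose by log2FC 0.68 (edgeR adjusted p = 0.0316), and without mouse 23 by 0.41 (adjusted p = 0.127), under the threshold. Selenop, the carrier of selenium, had an adjusted p of 0.0349 with a log2FC of 0.39, under the minimum fold. Of 22 lysosomal genes, 12 rose and 0 fell (median 0.66), and 5 rose without mouse 23. Ctss, a cathepsin that processes antigens, stood at 145 to 247 CPM (median 192) in FED-CTRL and 364 to 1933 CPM (median 625) in FED-HFD (log2FC 2.01 ± 0.37 SE, edgeR adjusted p = 0.00297). Gla, the alpha-galactosidase A, stood at 11.6 to 17.7 CPM (median 14.5) in FED-CTRL and 21.2 to 126 CPM (median 32.3) in FED-HFD, and Psap, the precursor of the saposins, was at 1834 to 2299 CPM (median 2072) in FED-CTRL and 2737 to 10092 CPM (median 3771) in FED-HFD (log2FC 1.69 and 1.19, adjusted p = 0.00335 and 0.00336). Without mouse 23 the log2FC of Gla was 1.10. In each of the 3 genes the groups were separate and mouse 23 was highest.

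Receptors of myeloid cells were higher too. Of 13 C-type lectin and Fc receptors 8 rose and 0 fell (median log2FC 1.25), 6 without mouse 23, and all 13 had a log2FC above 0. Fcgr3, a low affinity receptor for immunoglobulin G, stood at 48.6 to 62.4 CPM (median 55.4) in FED-CTRL and 81.9 to 353 CPM (median 121) in FED-HFD (log2FC 1.47 ± 0.25 SE, edgeR adjusted p = 0.00297). The Fc receptor gamma chain Fcer1g stood at 33.7 to 45.3 CPM (median 39.4) in FED-CTRL and 61.4 to 269 CPM (median 87.5) in FED-HFD (log2FC 1.499 ± 0.28 SE, edgeR adjusted p = 0.00297), and the inhibitory lectin Clec12a at 16.2 to 26.1 CPM (median 18.3) in FED-CTRL and 34.8 to 181 CPM (median 62.7) in FED-HFD (log2FC 1.95 ± 0.37 SE, edgeR adjusted p = 0.00326). In all 3 the lowest FED-HFD mouse exceeded the highest FED-CTRL mouse. Of 15 Toll-like receptors and adaptors, 9 rose and 0 fell (median 0.98), 7 of them also called without mouse 23. The smallest p-values of the list were those of Cd180, a Toll-like protein of antigen-presenting cells, with 5.49 to 10.2 CPM (median 8.44) in FED-CTRL and 14.6 to 74.9 CPM (median 23.2) in FED-HFD, and Tlr8, an endosomal sensor of RNA, with 13.3 to 19.4 CPM (median 17.4) in FED-CTRL and 27.7 to 121 CPM (median 53.2) in FED-HFD. Their log2FC was 1.91 and 1.87 (edgeR adjusted p = 0.00297 for both). Unc93b1, which carries endosomal Toll-like receptors to their compartment, rose by log2FC 1.07 (adjusted p = 0.00297).

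Letters of known binding motifs were searched, on both strands, in the 250 bases before the start site of protein-coding genes of GRCm39. The letters GAGGAAGT, a core bound by the myeloid factor PU.1, were present in 5.1% of the 961 higher genes, 1.9% of the 211 lower genes, 2.17% of the 13900 genes tested and 2.08% of all 21770 genes. Clec10a and Fcer1g were the higher named genes that held them. The motif of an interferon-stimulated response element (ISRE), a repeat of GAAA with a spacer, was present in 4.06% of the higher, 2.84% of the lower, 3.23% of the tested and 3.32% of all genes. It is shown for Slc15a3 and Art2a, which are among the 12 higher genes with the smallest p. The stretches below lie outside annotated exons, those of Clec10a and Art2a inside an intron of an annotated longer transcript, and are read 5′ to 3′ along the gene, with the motif or its reverse complement in capitals.
Clec10a (GRCm39, chr11:70057266-70057373, plus strand): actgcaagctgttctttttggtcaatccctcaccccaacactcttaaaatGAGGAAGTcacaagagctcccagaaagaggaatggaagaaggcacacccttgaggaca
Fcer1g (GRCm39, chr1:171062220-171062326, minus strand): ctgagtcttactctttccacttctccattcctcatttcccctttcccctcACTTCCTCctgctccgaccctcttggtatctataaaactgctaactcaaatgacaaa
Slc15a3 (GRCm39, chr19:10819646-10819734, plus strand): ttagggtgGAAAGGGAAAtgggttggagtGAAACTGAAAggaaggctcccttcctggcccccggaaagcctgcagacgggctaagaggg
Art2a (GRCm39, chr7:101210073-101210176, minus strand): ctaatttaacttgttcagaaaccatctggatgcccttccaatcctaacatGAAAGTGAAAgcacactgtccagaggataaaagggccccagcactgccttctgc
The site lay 152 to 145 bases before the start in Clec10a, 57 to 50 in Fcer1g and 54 to 45 in Art2a, and Slc15a3 held 2 sites between 242 and 212. The other motifs were the NF-kB site (0.728% of higher, 0.474% of lower and 0.424% of tested genes), the DR1 repeat bound by PPAR and RXR (1.04%, 0% and 0.281%) and TATAAA (7.6%, 9% and 7.5%). Sites of different motifs may overlap and were counted for each. A match is a description of the sequence and was not tested for binding.

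MHC class II genes, which present peptides to T helper cells, were higher, with another mouse at the top. Of 11 genes 8 rose and 0 fell (median log2FC 0.75), and without mouse 23 6 rose (median 0.72). Their summed level was 2199 to 3050.2 CPM in FED-CTRL and 3229.7 to 5569 CPM in FED-HFD, with mouse 40 highest and mouse 11 lowest. H2-Aa, the alpha chain of I-A, stood at 876 to 1136 CPM (median 955) in FED-CTRL and 1221 to 2004 CPM (median 1746) in FED-HFD. The groups did not overlap (log2FC 0.75 ± 0.11 SE, edgeR adjusted p = 0.00212, and 0.72 without mouse 23). H2-DMb1, which helps to load peptides, rose by log2FC 0.85 (edgeR adjusted p = 0.00529). Ifi30, a thiol reductase of the antigen pathway, rose from 46.8 to 69.3 CPM (median 57.9) to 91.0 to 377 CPM (median 117) (log2FC 1.38 ± 0.26 SE, edgeR adjusted p = 0.00314, and 0.88 without mouse 23). Cd74, the invariant chain, was among the 6 most abundant of the higher genes, at 788 to 1296 CPM (median 1086) in FED-CTRL and 1229.6 to 2041 CPM (median 1744) in FED-HFD, with the lowest FED-HFD mouse inside the FED-CTRL range (log2FC 0.66 ± 0.16 SE, edgeR adjusted p = 0.0108).

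Chemokine genes and their receptors were higher for 13 of 28 members and lower for 0 (median log2FC 0.78), and all 28 had a log2FC above 0. Without mouse 23, 6 were called. The smallest p-values of the list were those of the CC chemokines Ccl9, at 67.3 to 112 CPM (median 73.6) in FED-CTRL and 147 to 893 CPM (median 215) in FED-HFD (log2FC 1.98 ± 0.36 SE, edgeR adjusted p = 0.00297), and Ccl6, at 89.4 to 142 CPM (median 112) in FED-CTRL and 174 to 886 CPM (median 275) in FED-HFD (log2FC 1.62 ± 0.30 SE, edgeR adjusted p = 0.00306). Of 17 tested genes of interleukins, TNF and the inflammasome 8 rose and 0 fell, and 5 rose without mouse 23. Il1rn, the antagonist of interleukin-1, stood at 3.16 to 6.97 CPM (median 5.50) in FED-CTRL and 12.4 to 229.7 CPM (median 36.7) in FED-HFD, with the highest value in mouse 23 and the next at 54.6 CPM (log2FC 3.65 ± 0.66 SE, edgeR adjusted p = 0.00297). The interleukin-7 receptor Il7r rose from 6.31 to 12.7 CPM (median 8.68) to 23.1 to 136 CPM (median 41.5) (log2FC 2.54 ± 0.48 SE, edgeR adjusted p = 0.00297), and the interleukin-10 receptor chain Il10ra by log2FC 1.03 (adjusted p = 0.0046). Il6, Il10 and Il1a did not pass the filter on low counts.

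Among 18 complement genes, receptors made up most of the calls. The 4 called genes were C5ar1, C3ar1, Itgb2 and Cfb, 0 fell, and the same 4 were called without mouse 23. C3ar1, the receptor for C3a, stood at 23.7 to 45.7 CPM (median 30.1) in FED-CTRL and 52.3 to 292 CPM (median 86.0) in FED-HFD (log2FC 1.88 ± 0.35 SE, edgeR adjusted p = 0.00297). Itgb2, the beta chain of the complement receptors CR3 and CR4, was at 71.4 to 132 CPM (median 97.3) in FED-CTRL and 162 to 1221 CPM (median 253) in FED-HFD (log2FC 2.04 ± 0.41 SE, edgeR adjusted p = 0.00371, and 1.29 without mouse 23). Interferon-stimulated genes gave a single call, Oas1a, which makes the messenger that activates RNase L, with 5.30 to 8.02 CPM (median 6.93) in FED-CTRL and 5.95 to 36.4 CPM (median 15.4) in FED-HFD and overlapping groups (log2FC 1.38 ± 0.32 SE, edgeR adjusted p = 0.00817). Over all genes tested 6.42% were called higher, and 1 call of 20 lay near that share. All 20 had a log2FC above 0 (median 0.35). Rsad2 had a log2FC of 0.95 and Mx1 of 0.68 (adjusted p = 0.115 and 0.098), which did not pass. Their summed level was 542 to 1339 CPM in 5 FED-HFD mice and 2873 CPM in mouse 40, against 716 to 1210.1 CPM in FED-CTRL.

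Markers of other cells did not pass edgeR's test. The calls were 0 of 17 T and NK cell markers (summed 35.6 to 45.2 CPM in FED-CTRL and 32.5 to 53.0 CPM in FED-HFD), 0 of 8 B and plasma cell markers and 0 of 6 neutrophil and mast cell markers. The median log2FC of these lists was -0.02, 0.65 and -0.50, and 7 of the 8 B and plasma cell markers had a log2FC above 0. The summed level of the B and plasma cell markers was 429 to 778 CPM in FED-CTRL and 339 to 633 CPM in FED-HFD. At an unadjusted p under 0.05 the same lists had 0, 0 and 1 genes. Limma voom with quality weights called 1 neutrophil and mast cell marker lower and DESeq2 0. Adipose stromal progenitor genes had 0 calls of 14 (median log2FC -0.05), endothelial markers 0 of 12 (-0.41) and skeletal muscle markers 0 of 5 (-0.32), with 2, 3 and 0 genes at an unadjusted p under 0.05, and DESeq2 called 1 endothelial marker lower. The endothelial genes Emcn and Kdr had a log2FC of -0.61 and -0.55 (adjusted p = 0.0609 and 0.119), with mouse 23 lowest in both. Mesothelial markers also gave 0 of 10, with all 10 log2FC below 0 (median -0.74) and 0 at an unadjusted p under 0.05. Their summed level was 417 to 902 CPM in FED-CTRL, 195 to 336 CPM in 5 FED-HFD mice and 1015 CPM in mouse 40. Msln, which encodes mesothelin, stood at 103 to 212 CPM (median 168) in FED-CTRL and 46.3 to 222 CPM (median 71.9) in FED-HFD with an edgeR adjusted p of 0.394. The part of these cells in the other results was not tested.

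Cell cycle genes were higher for 18 of 22 members and lower for 0, and all 22 had a log2FC above 0 (median 1.22). Without mouse 23, 8 were called (median 0.77). Bub1, a kinase of the spindle checkpoint, stood at only 0.499 to 1.82 CPM (median 0.807) in FED-CTRL and 1.52 to 8.49 CPM (median 2.87) in FED-HFD (log2FC 1.90 ± 0.36 SE, edgeR adjusted p = 0.00314). Mcm5, a subunit of the replicative helicase, rose from 6.91 to 12.6 CPM (median 8.94) to 14.6 to 43.8 CPM (median 18.5) with no overlap (log2FC 1.21 ± 0.23 SE, edgeR adjusted p = 0.00334), and Birc5, which encodes survivin, from 1.68 to 4.35 CPM (median 2.24) to 3.90 to 15.8 CPM (median 5.47) with overlap (log2FC 1.43 ± 0.30 SE, edgeR adjusted p = 0.00437).

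More proteases of the extracellular matrix were called than collagens and crosslinkers. Over all genes tested 6.42% were called higher, so 1 call among 20 collagens and crosslinkers was not few beside that share. Of these 20 genes, 19 had a log2FC above 0 (median 0.28). Of 20 genes of collagens and their crosslinkers only Postn, a matricellular protein, rose, from 102 to 153 CPM (median 132) to 136 to 831 CPM (median 191) (log2FC 1.25 ± 0.33 SE, edgeR adjusted p = 0.0161), and without mouse 23 it did not pass (log2FC 0.64, adjusted p = 0.0726). Without mice 10 and 13, 3 of the 20 were called. Lox, which crosslinks collagen, had an adjusted p of 0.0361 at a log2FC of 0.51, and Col1a2 an adjusted p of 0.0853. Of 13 metalloproteinases and their inhibitors 5 rose and 0 fell, and 3 rose without mouse 23. Mmp12, the macrophage elastase, stood at 62.5 to 141 CPM (median 78.6) in FED-CTRL and 186 to 4149 CPM (median 410.4) in FED-HFD. The value of mouse 23 was 4149 CPM and the next highest 709.6 CPM (log2FC 3.56 ± 0.81 SE, edgeR adjusted p = 0.00745, and 2.18 without mouse 23). Adam8, a sheddase of leukocytes, was at 19.9 to 41.5 CPM (median 32.0) in FED-CTRL and 62.3 to 828 CPM (median 170.3) in FED-HFD (log2FC 3.03 ± 0.60 SE, edgeR adjusted p = 0.00346), and Mmp19 rose by log2FC 1.26 (adjusted p = 0.00593), and by 0.70 without mouse 23.

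**Figure D3:**
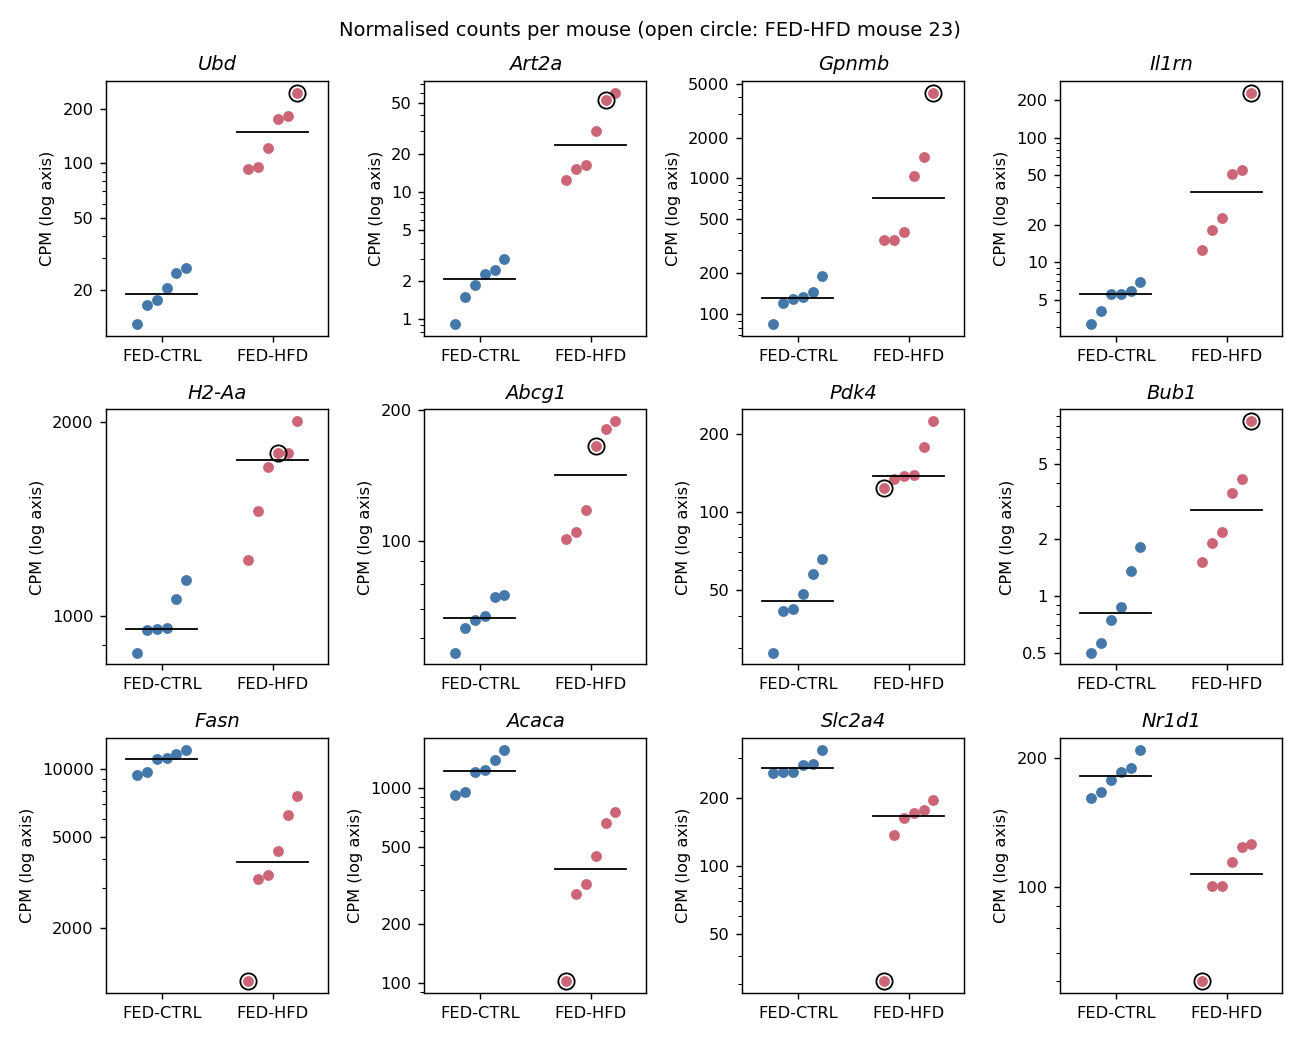
CPM (log axis) of 12 genes in each FED-CTRL and FED-HFD mouse, with a line at the group median and an open circle around FED-HFD mouse 23. In Gpnmb, Il1rn, Fasn, Acaca, Slc2a4 and Nr1d1 mouse 23 is the most extreme FED-HFD mouse, whereas in H2-Aa, Abcg1 and Pdk4 it lies among or below the others. The groups overlap in Bub1 and in none of the other 11 genes.

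The smallest p-value of any gene was that of Ubd, a ubiquitin-like modifier induced by TNF and interferon gamma. It stood at 12.9 to 26.5 CPM (median 19.1) in FED-CTRL and 93.5 to 245 CPM (median 149) in FED-HFD (log2FC 2.94 ± 0.37 SE, edgeR adjusted p = 0.000731), and at log2FC 2.75 without mouse 23. An exact permutation test on its log2 CPM, two-sided and over all 924 divisions of the 12 mice, gave p = 0.00216, the smallest that the design allows. A gene whose groups are separate in log2 CPM always gets this value. Ubd was chosen by its p in these same mice, so the value adds no support. Art2a, a cell surface ADP-ribosyltransferase with a close paralog in mice, rose from 0.915 to 2.98 CPM (median 2.06) to 12.5 to 60.2 CPM (median 23.2), with mouse 13 highest (log2FC 3.97 ± 0.54 SE, edgeR adjusted p = 0.00115). Counts of near-identical genes can be shared, so its level is uncertain. Abcg1, which exports cholesterol from cells, stood at 55.5 to 75.3 CPM (median 66.6) in FED-CTRL and 102 to 189 CPM (median 142) in FED-HFD, with mouse 12 highest (log2FC 1.10 ± 0.16 SE, edgeR adjusted p = 0.00212). Slc15a3, a lysosomal transporter of histidine and peptides, rose by log2FC 2.15, the retinol dehydrogenase Dhrs9 by 2.55, the activation marker Cd83 by 1.44, the thromboxane synthase Tbxas1 by 1.54 and Ipcef1 by 1.77 (edgeR adjusted p = 0.00297 for each). All 5 were separate between the groups and all 5 were called in each of the 12 fits that left out a mouse.

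The most abundant of the higher genes were Ctsb, Psap, Lyz2, Hp, Ftl1 and Cd74. Ctsb, the protease cathepsin B, stood at 2778 to 3073 CPM (median 2897) in FED-CTRL and 3484 to 8677 CPM (median 4081) in FED-HFD with no overlap (log2FC 0.72 ± 0.17 SE, edgeR adjusted p = 0.00835), and at log2FC 0.47 without mouse 23, under the minimum fold. Lyz2, the lysozyme of macrophages, was at 761 to 1240.2 CPM (median 902) in FED-CTRL and 1128 to 6694 CPM (median 1822) in FED-HFD with overlapping groups (log2FC 1.40 ± 0.34 SE, edgeR adjusted p = 0.01). Without mouse 23 its log2FC was 0.82, and it shares most of its sequence with a neighbouring paralog. Hp, haptoglobin, which binds free haemoglobin and is made by liver and by fat, stood at 917 to 1588 CPM (median 1121) in FED-CTRL and 1112 to 3054 CPM (median 2255) in FED-HFD, with mouse 12 highest and the groups overlapping (log2FC 0.84 ± 0.24 SE, edgeR adjusted p = 0.027). Hp was called in 8 of the 12 fits that left out a mouse. It did not pass without mice 10 and 13, which held liver RNA (log2FC 0.78, adjusted p = 0.0718). The part of liver RNA in its level was not tested. Ftl1, the ferritin light chain, has many processed copies and was called with mouse 23 (log2FC 0.80) and not without it (0.35, adjusted p = 0.146).

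Most adipocyte markers did not pass the test. Of 14 markers only Slc2a4 fell and 0 rose, with a median log2FC of -0.41, and -0.26 without mouse 23. Over all genes tested 1.58% were called lower. Slc2a4 encodes GLUT4, the glucose transporter that insulin brings to the surface. It stood at 257 to 327 CPM (median 269) in FED-CTRL and 30.8 to 195 CPM (median 167) in FED-HFD. Each FED-HFD mouse lay below each FED-CTRL mouse (log2FC -0.93 ± 0.26 SE, edgeR adjusted p = 0.0249), and it passed without mouse 23 as well (-0.72, adjusted p = 0.00697). Pparg, the master regulator of adipocytes, was at 213 to 351 CPM (median 296) in FED-CTRL and 83.5 to 294 CPM (median 196) in FED-HFD (log2FC -0.58, adjusted p = 0.127). Lpl, Adipoq and Plin1 had a log2FC of -0.37, -0.59 and -0.46 (adjusted p = 0.138, 0.228 and 0.179), and mouse 23 was lowest in each.

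Adipokine genes gave 1 higher and 1 lower call of 14, where over all genes tested 6.42% were called higher and 1.58% lower. Metrnl, a secreted meteorin-like factor, rose from 31.3 to 44.7 CPM (median 33.3) to 48.3 to 185 CPM (median 69.5) (log2FC 1.24 ± 0.25 SE, edgeR adjusted p = 0.00389). Rbp4, the carrier of retinol, fell from 729 to 849 CPM (median 776) to 53.0 to 647 CPM (median 334) with no overlap (log2FC -1.21 ± 0.37 SE, edgeR adjusted p = 0.0377). Rbp4 was called in 4 of the 12 fits that left out a mouse, and not without mice 10 and 13 (adjusted p = 0.0873). Lep, leptin, stood at 2142 to 3157 CPM (median 2435) in FED-CTRL and 1459 to 3804 CPM (median 2845) in FED-HFD, a difference that was not detected (log2FC 0.15 ± 0.24 SE, adjusted p = 0.734). Retn, resistin, had a log2FC of -0.99 (adjusted p = 0.0687), which did not pass. Of 21 genes of lipolysis and the lipid droplet, Plin2 alone rose, a droplet coat protein that macrophages also make, from 549 to 748 CPM (median 604) to 846 to 2631 CPM (median 1031) (log2FC 1.05 ± 0.24 SE, edgeR adjusted p = 0.0077). Pde3b, the phosphodiesterase through which insulin restrains lipolysis, had a log2FC of -0.59 (adjusted p = 0.109). Of 14 adipogenic transcription factors 0 were called by edgeR, 9 had an unadjusted p under 0.05, and DESeq2 called 2 lower and limma voom with quality weights 0. Rora and Rxra had adjusted p-values of 0.00635 and 0.0387, but log2FC of -0.41 and -0.47, under the minimum fold.

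Several genes of de novo lipogenesis were lower in FED-HFD. Of 21 genes of fatty acid and triglyceride synthesis, 5 fell (Acaca, Fasn, Elovl6, Slc25a1 and Lpin1) and 1 rose (Elovl3), and 20 had a log2FC below 0 (median -0.66). Fasn, fatty acid synthase, was the most abundant of all lower genes, at 9373 to 12122 CPM (median 11049) in FED-CTRL and 1169 to 7621 CPM (median 3885) in FED-HFD. The highest FED-HFD mouse lay under the lowest FED-CTRL mouse (log2FC -1.31 ± 0.35 SE, edgeR adjusted p = 0.0195). Acaca, acetyl-CoA carboxylase 1, the committed step of the pathway, stood at 923 to 1575 CPM (median 1222) in FED-CTRL and 102 to 756 CPM (median 385) in FED-HFD, again with no overlap (log2FC -1.502 ± 0.38 SE, edgeR adjusted p = 0.0143). Slc25a1, which exports citrate from mitochondria, fell by 0.75 on the log2 scale (adjusted p = 0.0286). Tkt, transketolase of the pentose phosphate pathway, was also among the 6 most abundant lower genes and stood at 834 to 1547 CPM (median 1025) in FED-CTRL and 339 to 824 CPM (median 405) in FED-HFD (log2FC -1.15 ± 0.31 SE, edgeR adjusted p = 0.0205). Without mouse 23, Fasn and Acaca passed (log2FC -1.12 and -1.30) and were the 2 genes of the list that did, whereas Tkt did not (adjusted p = 0.0605). In all 4 genes mouse 23 was lowest. The number of lower genes of the list depended on the fit, with 9 by limma voom with quality weights, 10 by DESeq2 and 12 without CR20-CTRL mouse 5, which shares in the estimate of spread.

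The letters TCACNCCAC, a sterol response element bound by SREBP, were present before the start site of Fasn and Acaca, in 1.9% of the 211 lower genes, 2.08% of the 961 higher genes, 1.11% of the genes tested and 1.12% of all protein-coding genes. The site is in capitals. For Fasn only 29 bases are shown, since the window lies in a 5′ exon of longer annotated transcripts. The Acaca stretch lies in an intron of longer transcripts, in a run of CA repeats.
Fasn (GRCm39, chr11:120715063-120715091, minus strand): cgcgcgggcaTCACCCCACcggcggcggc
Acaca (GRCm39, chr11:84063800-84063908, plus strand): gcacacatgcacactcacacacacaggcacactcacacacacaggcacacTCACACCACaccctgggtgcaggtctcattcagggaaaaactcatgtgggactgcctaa
The site lay 146 to 138 bases before the start in Fasn and 98 to 90 in Acaca.

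Other lipid pathways gave fewer calls than de novo lipogenesis, where over all genes tested 6.42% were called higher and 1.58% lower. Fdft1, which makes squalene in cholesterol synthesis, had a log2FC of -0.50, under the minimum fold. Of 19 fatty acid oxidation genes and PPAR targets 2 rose. Pdk4, the kinase that shuts off pyruvate dehydrogenase, stood at 28.7 to 66.2 CPM (median 45.4) in FED-CTRL and 124 to 224 CPM (median 138) in FED-HFD. All FED-HFD mice lay above all FED-CTRL mice, with mouse 12 highest and mouse 23 lowest of FED-HFD (log2FC 1.71 ± 0.25 SE, edgeR adjusted p = 0.00212, and 1.77 without mouse 23). Cpt1a, which admits fatty acids to mitochondria, rose from 115 to 150.1 CPM (median 124) to 155 to 268 CPM (median 184) (log2FC 0.62 ± 0.14 SE, edgeR adjusted p = 0.00769), and without mouse 23 its log2FC of 0.51 lay under the minimum fold. Angptl4, an inhibitor of lipoprotein lipase, had a log2FC of 0.68 and did not pass (adjusted p = 0.0801). Of 13 genes of fatty acid transport 0 were called by edgeR, 5 had an unadjusted p under 0.05, and DESeq2 and limma voom with quality weights each called 1 higher. Acsl5, a long-chain acyl-CoA synthetase, had separate groups at a log2FC of 0.31, under the minimum fold. The 3 calls among 12 thermogenic genes, Ucp1, Dio2 and Elovl3, sat near the floor, and of these only Ucp1 passed without mouse 23. Ucp1, the uncoupling protein of brown fat, was at 0 to 0.244 CPM (median 0.071) in FED-CTRL and 0.253 to 2.85 CPM (median 1.54) in FED-HFD, so no fold is given for it.

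Glucose transporters were among the genes that fell. Of 21 genes of glucose uptake and insulin signalling, 4 fell, which were the transporters Slc2a3, Slc2a4 and Slc2a13 and the hexokinase Hk2, and Hk3 rose. The same 5 genes were called without mouse 23. Slc2a13, a transporter of myo-inositol, stood at 2.84 to 6.45 CPM (median 4.72) in FED-CTRL and 1.23 to 2.62 CPM (median 1.88) in FED-HFD (log2FC -1.28 ± 0.22 SE, edgeR adjusted p = 0.00297), and Slc2a3, or GLUT3, at 9.35 to 19.6 CPM (median 16.4) in FED-CTRL and 5.56 to 11.8 CPM (median 8.06) in FED-HFD (log2FC -0.92 ± 0.22 SE, edgeR adjusted p = 0.00901). Hk3, a hexokinase of myeloid cells, went the other way, from 13.2 to 27.1 CPM (median 26.0) to 45.8 to 309.6 CPM (median 84.9) (log2FC 2.27 ± 0.37 SE, edgeR adjusted p = 0.00297). Of 24 respiratory chain subunits 0 were called by edgeR, DESeq2 or limma voom with quality weights, 11 had an unadjusted p under 0.05 by edgeR and 22 had a log2FC below 0 (median -0.23, and -0.17 without mouse 23). Sdha, of complex II, had the smallest p of the list, with an adjusted p of 0.0735 at log2FC -0.31.

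Output genes of the circadian clock were lower. Of 17 clock genes 5 fell (Tef, Nr1d1, Hlf, Dbp and Per3) and 1 rose (Npas2), with a median log2FC of -0.55. Tef, Hlf and Dbp encode the PAR bZIP activators driven by the clock, and Nr1d1 the repressor REV-ERB alpha. Nr1d1 stood at 162 to 209.7 CPM (median 182) in FED-CTRL and 59.9 to 126 CPM (median 107) in FED-HFD, with no overlap (log2FC -0.81 ± 0.18 SE, edgeR adjusted p = 0.00658). It shares the end of its locus with Thra on the other strand, and how strand was used in counting is not stated, so their reads cannot be fully told apart. Tef fell from 152 to 238 CPM (median 232) to 82.6 to 139 CPM (median 135) (log2FC -0.80 ± 0.18 SE, edgeR adjusted p = 0.00591) and Hlf from 14.4 to 23.5 CPM (median 18.5) to 6.38 to 13.7 CPM (median 10.5) (log2FC -0.92 ± 0.22 SE, edgeR adjusted p = 0.00903), and Nr1d1, Tef and Hlf were the 3 called without mouse 23. Dbp was at 42.0 to 88.0 CPM (median 73.8) in FED-CTRL and 20.8 to 42.6 CPM (median 33.6) in FED-HFD, with overlap (log2FC -1.11 ± 0.31 SE, edgeR adjusted p = 0.0247), and did not pass without mouse 23 (adjusted p = 0.0761). Bmal1, an activator in antiphase to these genes, had a log2FC of 0.82 and did not pass (adjusted p = 0.266). The time of day of collection is not given in the sources used here.

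Of 14 immediate early genes 4 rose (Atf3, Egr2, Fos and Junb) and 0 fell, and Atf3 and Egr2 rose without mouse 23. Atf3, a stress-induced repressor, stood at 19.6 to 31.1 CPM (median 23.5) in FED-CTRL and 42.5 to 344 CPM (median 72.3) in FED-HFD (log2FC 2.25 ± 0.43 SE, edgeR adjusted p = 0.00326), Egr2 at 3.09 to 6.04 CPM (median 4.36) in FED-CTRL and 6.93 to 50.04 CPM (median 16.7) in FED-HFD (log2FC 2.21 ± 0.48 SE, edgeR adjusted p = 0.00529) and Fos at 8.64 to 29.96 CPM (median 16.8) in FED-CTRL and 19.5 to 142 CPM (median 39.9) in FED-HFD (log2FC 1.66 ± 0.45 SE, edgeR adjusted p = 0.02). Of 14 genes of the unfolded protein response only Sdf2l1, a protein of the endoplasmic reticulum, rose, by log2FC 0.72 (adjusted p = 0.0445), and it was called in 2 of the 12 fits that left out a mouse, but not without mouse 23. The share called higher over all genes tested was 6.42%, and 1 call of 14 lay near it. Of 15 NRF2 and oxidative stress genes, Hmox1 and Srxn1 rose and Gsta3 fell. Hmox1, heme oxygenase 1, had 404 CPM in mouse 23 and 51.6 to 93.8 CPM in the other FED-HFD mice, against 36.7 to 53.6 CPM (median 42.4) in FED-CTRL (log2FC 1.54 ± 0.36 SE, edgeR adjusted p = 0.00828, and 0.70 without mouse 23). Srxn1, sulfiredoxin, did not pass without mouse 23 (log2FC 0.26). Gsta3, a glutathione transferase, fell from 54.2 to 72.2 CPM (median 67.7) to 20.6 to 47.9 CPM (median 29.2) with no overlap (log2FC -1.03 ± 0.23 SE, edgeR adjusted p = 0.00621).

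The 12 lower genes with the smallest p-values had varied roles. Reep1, which shapes the endoplasmic reticulum, stood at 9.15 to 11.6 CPM (median 9.84) in FED-CTRL and 2.30 to 6.86 CPM (median 4.87) in FED-HFD (log2FC -1.09 ± 0.17 SE, edgeR adjusted p = 0.00297). Thra, the thyroid hormone receptor alpha, was at 74.2 to 88.0 CPM (median 83.5) in FED-CTRL and 37.1 to 65.5 CPM (median 55.3) in FED-HFD and fell just past the minimum fold (log2FC -0.59 ± 0.09 SE, edgeR adjusted p = 0.00297), and was called in 8 of the 12 fits that left out a mouse, but not without mouse 23 (log2FC -0.50). Trhde, the enzyme that degrades thyrotropin-releasing hormone, had the largest fall of the 12, from 9.40 to 12.8 CPM (median 11.2) to 0.597 to 6.16 CPM (median 3.74) (log2FC -1.63 ± 0.32 SE, edgeR adjusted p = 0.00336). Fgf11, an intracellular member of the fibroblast growth factor family, fell by 1.13 on the log2 scale, the Rac regulator Chn1 by 1.08, and the phosphatase Dusp8, which acts on MAP kinases, by 1.03 (edgeR adjusted p = 0.00297, 0.00389 and 0.00336). Vasn, vasorin, which binds TGF-beta, stood at 49.1 to 75.8 CPM (median 59.4) in FED-CTRL and 31.9 to 41.4 CPM (median 35.6) in FED-HFD (log2FC -0.74 ± 0.15 SE, edgeR adjusted p = 0.00389). Ankrd29, Klhl29, Vstm4 and Tmem271rt fell by 0.94, 0.79, 0.78 and 1.61 on the log2 scale, and Slc2a13 is given above. Of the 12, Dusp8 alone had overlapping groups. Of the most abundant lower genes, Trf, transferrin, stood at 2050.4 to 2508 CPM (median 2163) in FED-CTRL and 676 to 1838 CPM (median 1516) in FED-HFD (log2FC -0.65 ± 0.18 SE, edgeR adjusted p = 0.0265), and at a log2FC of -0.50 without mouse 23, under the minimum fold. Cdo1, cysteine dioxygenase, stood at 1333 to 1684 CPM (median 1437) in FED-CTRL and 185 to 1008 CPM (median 874) in FED-HFD (log2FC -0.92 ± 0.28 SE, edgeR adjusted p = 0.0365), with mouse 23 lowest in both.

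The same contrast gave 0 calls (0%) in the eWAT of the offspring of CR20 dams, where 962 genes had an unadjusted p under 0.05 by edgeR, against 4106 in the offspring of FED dams. For that contrast limma voom with quality weights called 0 genes and DESeq2 1. Over the 1025 higher and 253 lower genes, the median log2FC of CR20-HFD vs CR20-CTRL was -0.14 and -0.12. The difference between the 2 diet responses, tested as an interaction, passed the thresholds in 387 genes (2.42%), of which 373 (2.34%) had a smaller and 14 (0.0877%) a larger log2FC in CR20. Among them were 364 of the higher genes and 7 of the lower genes. Of the 12 higher genes with the smallest p, Pdk4 alone was not among them, at log2FC 0.90 in CR20 (edgeR adjusted p = 0.789). The higher and lower genes were called on a contrast that is part of the interaction, so their overlap with it was favoured by construction. Fasn and Acaca, with log2FC -0.81 and -0.67 in CR20, were lower there too on average and gave no called interaction (adjusted p = 0.61 and 0.407). Without mouse 23 the interaction passed in 287 genes, but it passed in 0 genes when FED-CTRL mouse 15, 16, 41 or 42 was left out. CR20-CTRL mouse 5, one of the libraries with liver RNA, also stood apart, with adipocyte markers summing to 25013 CPM against 48644 to 67764 CPM in the other 5 CR20-CTRL mice. Without it the interaction passed in 0 genes as well and the CR20 contrast in 0, with 479 genes at an unadjusted p under 0.05 in that contrast by edgeR. The median log2FC in CR20 was then -0.06 over the higher and -0.17 over the lower genes, and that of Fasn and Acaca -0.99 and -0.86. Whether any interaction was called thus depended on single mice. The smallest adjusted p of edgeR's interaction test was 0.0322 with all mice. It was 0.0581, 0.0569, 0.0621 and 0.0703 without FED-CTRL mouse 15, 16, 41 and 42, each above the threshold. Without CR20-CTRL mouse 5 it was 0.072. In that fit the interaction log2FC of Cd68 went from -2.33 to -2.28 and that of Tlr8 from -2.45 to -2.16. The loss of the calls does not show that the 2 diet responses were equal. In the liver of the same mice 11 of 12801 genes tested in both tissues (0.0859%) were called, of which only Gm11773 was also called in eWAT.

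**Figure D4:**
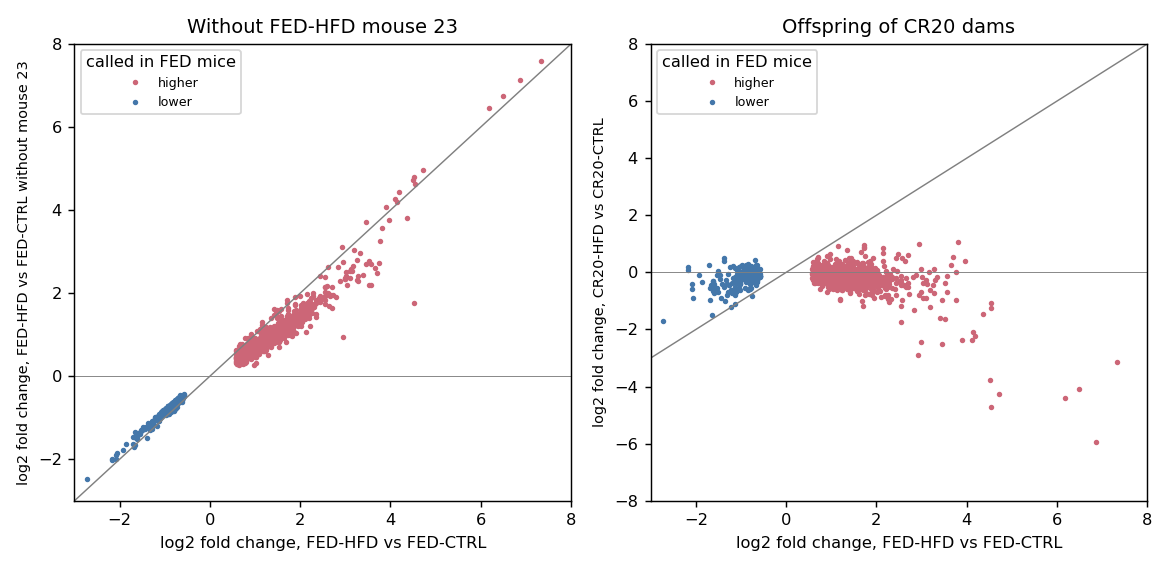
Log2FC of the 1025 higher (red) and 253 lower (blue) genes with all mice (horizontal axes) against the log2FC without FED-HFD mouse 23 (left, vertical axis) and against the log2FC of the diet in offspring of CR20 dams (right, vertical axis); the diagonal marks equal values. On the left the medians move from 1.20 to 0.84 and from -0.83 to -0.71, and on the right the medians in CR20 are -0.14 and -0.12.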

How the data were processed

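RNA of eWAT from 24 male mice was sequenced by the authors, who trimmed the reads with Trimmomatic, aligned them with STAR to GRCm39, counted them per gene with featureCounts of Subread and deposited whole-number counts with no normalization. Versions of these tools are not given in the sources used here. The text of the methods names both a total RNA and an mRNA kit, each stranded, and no strand setting, so counts are uncertain for genes that overlap on either strand.

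The 24 eWAT libraries were fitted together in edgeR 4.0.16 (R 4.3.3), as 4 groups of 6 mice, by filterByExpr, TMM, estimateDisp, glmQLFit and glmQLFTest with default values. Two-sided p-values were corrected over the 15964 genes tested (Benjamini-Hochberg). A gene was called at an adjusted p of at most 0.055 and an absolute log2FC of at least 0.58, after the methods of the study. A standard error is the absolute log2FC divided by the square root of F. CPM values carry the TMM factors, except those of liver-abundant genes, and log2 CPM a prior count of 2. Gene names, positions and start sites came from GENCODE M39 and sequence from GRCm39. No column of the table was left unused for want of a sample (0 columns), and 0 pairs of libraries within a group were identical.

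On simulated counts of 15798 genes for FED-HFD vs FED-CTRL, 64 of 100 genes changed by a log2FC of 1 and 92 of 100 changed by 2 were recovered, with 8 wrong calls. Each gene was simulated independently, with no shift shared across genes such as that of mouse 23 and no liver RNA. The simulation therefore does not give the error of the calls in these data. Alternatives were limma 3.58.1 voom with quality weights, which the methods name, voom without them, DESeq2 1.42.0, its size factors in edgeR, other filters, thresholds and covariates, and leaving out mice.

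The contrast, the 37 gene lists and their members were chosen with earlier results of these data known. Named genes are, in each direction, the 12 called genes of smallest p that are not predicted genes, the 3 members of each list with the smallest p, the 6 most abundant called genes in each direction and the first 3 members of each marker list, of which those that bear on a result are given. Some of them are not reported here. Lep, Trem2, Gpnmb, Dbp, Bmal1, Slc2a5, Hsd11b1, Tm4sf19 and the liver genes, as well as the fits without mice 10 and 13 and without CR20-CTRL mouse 5, were chosen after their values were seen.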

Additional observations from a re-analysis of the deposited data

Results flagged for a closer look

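In groups of 6 mice, a mouse was noted where the gap from the highest or lowest log2 CPM to the next, divided by the range of the group, exceeded the 95% critical value of Dixon's test. Of 306 groups of 6 examined over 117 named genes and 36 gene lists, 48 met this, where chance gives about 1 in 20 by the construction of this limit. In FED-HFD most of these were mouse 23. It was the lowest mouse in Thra 0.641, Ankrd29 0.715, Cdo1 0.772, Slc2a4 0.808, Lpl 0.783, Adipoq 0.655, Plin1 0.824, Pde3b 0.742, Rxra 0.632, Angptl4 0.727, Tef 0.691, Nr1d1 0.692, Emcn 0.677, Chn1 0.654, Sdha 0.637 and Kdr 0.763, and the highest in Csf1r 0.65, Mrc1 0.649, Fcer1g 0.693, Ifi30 0.765, Mcm5 0.681, Birc5 0.643, Mmp19 0.642, Hmox1 0.709, Ftl1 0.638 and Srxn1 0.854, each value being the gap as a share of the range. In summed levels mouse 23 was lowest in adipocyte markers 0.729, endothelial markers 0.715, adipokine genes 0.756, lipolysis and lipid droplet genes 0.807, adipogenic transcription factors 0.778, de novo lipogenesis and triglyceride synthesis genes 0.669, thermogenic adipocyte genes 0.933 and glucose uptake and insulin signalling genes 0.732, and highest in lipid-associated macrophage genes 0.643, chemokines and chemokine receptors 0.637, interleukin, TNF and inflammasome genes 0.6253, cell cycle genes 0.645 and matrix metalloproteinases and their inhibitors 0.76. These genes and lists move together with the macrophage and adipocyte markers of that mouse, whose summed levels stand in the plot of marker sums by mouse, and the part of tissue makeup in them was not tested.

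FED-HFD mouse 40 was the highest in Gpm6a 0.627 and in mesothelial markers 0.669. In FED-CTRL, mouse 24 was lowest in Pde3b 0.636, Tef 0.741 and Slc2a3 0.746 and highest in B and plasma cell markers 0.685, mouse 42 was lowest in Hk3 0.707 and in MHC class II antigen presentation genes 0.65, and mouse 41 was highest in adipogenic transcription factors 0.699.

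By edgeR's interaction test with the thresholds used above, the diet response was called different between the offspring of CR20 and FED dams in 46 of the 117 named genes. Over all genes tested 387 (2.42%) were called. Most named genes were chosen for a small p in FED-HFD vs FED-CTRL, which is part of the interaction. The choice thus favoured such calls, and 46 does not measure how common they are. The log2FC in CR20 minus that in FED was positive in Ankrd29 (0.90), Dusp8 (1.21) and Vasn (0.81). It was negative in the others, which were Ubd (-1.93), Art2a (-3.56), H2-Aa (-0.83), Abcg1 (-1.05), Slc15a3 (-2.31), Cd83 (-1.48), Dhrs9 (-2.99), C5ar1 (-2.20), Hk3 (-2.41), Tbxas1 (-1.70), Psap (-1.27), Metrnl (-1.30), Cd68 (-2.33), Adgre1 (-2.12), Csf1r (-1.11), Lipa (-2.41), Tyrobp (-1.86), Lgals3 (-2.40), Trem2 (-2.84), Gpnmb (-3.999), Ctss (-2.33), Gla (-1.96), Ccl9 (-1.90), Ccl6 (-1.54), Il1rn (-3.40), Il7r (-2.93), Il10ra (-1.29), Cd180 (-2.08), Tlr8 (-2.45), Unc93b1 (-1.16), Fcgr3 (-1.63), Fcer1g (-1.65), Clec12a (-2.23), Ifi30 (-1.59), C3ar1 (-2.35), Itgb2 (-2.35), Bub1 (-1.90), Adam8 (-3.40), Mmp12 (-4.26), Atf3 (-2.30), Egr2 (-2.80), Ipcef1 (-2.48) and Tm4sf19 (-3.88). Every call of an interaction was lost in the fits without FED-CTRL mouse 15, 16, 41 or 42 or CR20-CTRL mouse 5.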

How the results depend on the processing

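No paired analysis was possible because each mouse ate 1 diet and the litter of each mouse is not given in the sources used here. By the study's methods, the pups of a dam were divided blindly between the diets, so litters may span both groups. Each setting gave more higher than lower genes, from 71.1 to 89.1% of the calls. Against 1025 higher, 253 lower and 387 interaction calls, limma voom with quality weights gave 444 lower and 177 interaction calls, voom without weights 0 interaction calls, and DESeq2 820 interaction calls. With no filter on low counts 158 genes were lower. With a minimum log2FC of 1, 668 were higher and 82 lower, and with no minimum 480 were lower. Leaving out 1 FED mouse at a time gave 550 to 1211 higher, 106 to 388 lower and 0 to 722 interaction calls, the fewest higher and lower without FED-HFD mouse 23. The cause of these shifts was not tested, except that the thresholds act by construction.

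Leaving out CR20-CTRL mouse 5, a choice made after seeing the data, gave 1162 higher, 351 lower and 0 interaction calls. Leaving out FED-HFD mice 10 and 13, chosen likewise, gave 1090 higher, 247 lower and 493 interaction calls. Lep then turned from a log2FC of 0.15 to -0.092 (edgeR adjusted p = 0.865), neither being called, and Tkt, Slc25a1, Dbp and Elovl3 lost their calls. Among named genes this was the single change of direction over all settings. Depth limits genes near the floor of 0.134 to 0.249 CPM, such as Ucp1, Dio2 and Elovl3.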

Other observations

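Some genes outside the lists and the naming rule had large differences, and were chosen after their values were seen. Slc2a5, the fructose transporter GLUT5, had the lowest log2FC of all called genes and stood at 2.93 to 5.07 CPM (median 3.95) in FED-CTRL and 0.0492 to 2.13 CPM (median 0.343) in FED-HFD (log2FC -2.72 ± 0.66 SE, edgeR adjusted p = 0.0104). Every FED-HFD mouse lay below every FED-CTRL mouse, and the lowest FED-HFD mouse lay under the floor of detection. Hsd11b1, the enzyme that regenerates active glucocorticoid inside cells, stood at 149 to 212 CPM (median 182) in FED-CTRL and 22.9 to 107 CPM (median 67.8) in FED-HFD, with no overlap (log2FC -1.41 ± 0.34 SE, edgeR adjusted p = 0.00941). Both were called in each of the 12 fits that left out a mouse. On the other side, Tm4sf19, a membrane protein of the tetraspanin-like L6 family, stood at 1.87 to 4.43 CPM (median 2.84) in FED-CTRL and 6.73 to 105 CPM (median 24.0) in FED-HFD (log2FC 3.52 ± 0.69 SE, edgeR adjusted p = 0.00337) and was called in each of these fits too. With log2FC of -2.48, -1.23 and 2.77 without mouse 23, the 3 genes kept their direction.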
